A study of Mus musculus with 33 samples.

Results

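Myc, Ccnd1, Cdkn1a and E2f3 control whether a myoblast keeps dividing, and this section describes where 7 chromatin proteins were listed as bound around these 4 genes in the mouse muscle line C2C12. The members are all peaks that overlap 4 fixed windows of genome build mm9: Myc (NCBI Gene 17869, chromosome 15, 61805000 to 61830000), Ccnd1 (12443, chromosome 7, 152108000 to 152135000), Cdkn1a (12575, chromosome 17, 29220000 to 29245000) and E2f3 (13557, chromosome 13, 29990000 to 30090000). The windows are 25, 27, 25 and 100 kb wide. They hold 185 of the 493022 nuclear peaks in the 23 deposited lists: 51 at Myc, 34 at Ccnd1, 27 at Cdkn1a and 73 at E2f3. Of these, 67 came from lists that pool replicates, 55 from the 3 lists without replicates and 63 from replicate lists, so a site can be counted more than once.

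Binding was mapped by chromatin immunoprecipitation and sequencing (ChIP-seq), in which an antibody enriches the DNA its target sits on and a peak marks where reads pile up. Growing C2C12 myoblasts, kept in 10% fetal bovine serum, gave lists for ING1 (2 replicates), Menin (2), MLL1 (2), Wdr5 (3), LSD1 (1 list) and MLL3 (1 list). Myotubes, the fused cells collected 96 h (4 days) after a switch to 2% horse serum, gave lists for ING1 (3), Sin3A (2) and LSD1 (1 list). All lists come from C2C12 cells. For ING1 the cells also carried a Flag-tagged ING1 gene, delivered in the pBabe-puro vector to a puromycin-selected line and pulled down through the tag, so the ING1 lists show an added, tagged protein. For Sin3A the sample labels (myotubes) and the design text (myoblasts) disagree, and for MLL1 the source label names Menin whereas the title and the antibody name MLL; the sample titles and antibodies were used. The labels do not tie replicates to separate cultures, so p-values over replicates measure only the spread between these lists, which may be technical.

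A differentiating myoblast leaves the cell cycle for good before it fuses. Myc is a transcription factor that drives growth, cyclin D1 (Ccnd1) activates the kinases Cdk4 and Cdk6 that inactivate the Rb protein, E2f3 is one of the transcription factors that Rb holds in check and that switch on genes of DNA replication, and p21 (Cdkn1a) inhibits cyclin-dependent kinases and is a known early mark of myogenic differentiation. The mapped proteins handle methylation of histone H3 at lysine 4 (H3K4). MLL1 and MLL3 write the mark, Wdr5 is a core subunit of MLL complexes, Menin is a subunit of the MLL1 complex, LSD1 erases the mark, and ING1 reads its trimethylated form and belongs to Sin3 deacetylase complexes, whose scaffold is Sin3A. MLL1 also has a domain that binds DNA rich in unmethylated CpG.

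The deposited lists hold peak boundaries in base pairs and no height, so each value below is a number of peaks or a number of bases covered. The depth behind the lists is unknown. List length differed widely: nuclear peaks numbered 4442 to 218204 in the 9 pooled or single lists and 126 to 23164 in the 14 replicate lists, and ING1 replicate 3 of myotubes (126 peaks), ING1 replicate 1 of myoblasts (428), Sin3A replicate 2 (430) and MLL1 replicate 2 (466) were the shortest. An mm9 gene annotation was not used here, so peaks are placed by coordinate and not by exon, intron or start site.

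RefSeq sequences around the transcription start, from 250 bases before to 50 after it, were at hand for 2 of the 4 genes, with 2 start sites each. They are shown because they differ in CpG, the dinucleotide that MLL1 and H3K4 trimethylation are known to favour; capitals mark every CpG and each run reads 5′ to 3′. Coordinates in this paragraph are of build GRCm38.p6 and cannot be laid against the mm9 peaks. The Cdkn1a starts lie at chr17:29090729-29091028 (plus strand) and chr17:29093519-29093818 (plus), and the E2f3 starts at chr13:29986014-29986313 (minus) and chr13:29984342-29984641 (minus).
Cdkn1a, first start: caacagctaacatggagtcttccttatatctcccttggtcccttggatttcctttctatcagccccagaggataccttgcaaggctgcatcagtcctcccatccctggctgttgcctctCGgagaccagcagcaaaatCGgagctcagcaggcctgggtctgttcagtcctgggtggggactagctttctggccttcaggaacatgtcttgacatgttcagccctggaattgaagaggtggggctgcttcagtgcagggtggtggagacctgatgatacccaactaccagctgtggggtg
Cdkn1a, second start: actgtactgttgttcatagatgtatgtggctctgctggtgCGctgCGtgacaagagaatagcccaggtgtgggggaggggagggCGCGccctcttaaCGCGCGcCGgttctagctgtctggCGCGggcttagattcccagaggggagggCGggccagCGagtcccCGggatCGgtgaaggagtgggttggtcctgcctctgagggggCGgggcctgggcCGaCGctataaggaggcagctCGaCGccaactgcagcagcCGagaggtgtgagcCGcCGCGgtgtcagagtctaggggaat
E2f3, first start: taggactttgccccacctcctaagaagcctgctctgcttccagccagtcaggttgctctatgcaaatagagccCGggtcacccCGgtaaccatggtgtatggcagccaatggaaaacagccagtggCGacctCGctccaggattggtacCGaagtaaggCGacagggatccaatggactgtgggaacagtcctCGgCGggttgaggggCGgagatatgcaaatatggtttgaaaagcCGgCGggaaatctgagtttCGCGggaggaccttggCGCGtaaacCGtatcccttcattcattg
E2f3, second start: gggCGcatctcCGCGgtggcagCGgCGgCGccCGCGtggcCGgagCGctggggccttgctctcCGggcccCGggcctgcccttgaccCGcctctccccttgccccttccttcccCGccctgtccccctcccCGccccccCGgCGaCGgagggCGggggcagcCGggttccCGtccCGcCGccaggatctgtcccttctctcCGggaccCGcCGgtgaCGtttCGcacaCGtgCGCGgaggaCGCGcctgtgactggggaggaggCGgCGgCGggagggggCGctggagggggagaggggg
The first Cdkn1a start held 2 CpG and the second 23, a count that 85.9% and 21.5% of the 32851 RefSeq promoters of this length reached or exceeded. The E2f3 starts held 16 and 37 CpG (reached by 33.0% and 5.58%), against a median of 7 over all promoters. The E2F motif, searched on both strands as TTTCCCGC, TTTCGCGC, TTTGCCGC and TTTGGCGC, occurred once in these sequences, as GCGGGAAA from base 240 of the first E2f3 start; 2.26% of all promoters held at least one match. The E-box CACGTG occurred once, in the second E2f3 start, and in 7.15% of all promoters. A match is a description of the letters and not a bound site.

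The 4 windows differed in which factors were listed. Myc had peaks of all 9 pooled or single lists, Cdkn1a of 8 (no MLL1), E2f3 of 7 (no MLL1 and no LSD1 of myoblasts) and Ccnd1 of 6, which were all the myoblast lists and none of the myotube lists. For comparison, the nuclear genome was cut into adjoining tiles as wide as each window. Peaks of all 9 lists were found in 1.03% of 102833 tiles of 25 kb, of 8 or more in 2.95%, of 6 or more in 7.12% of 95216 tiles of 27 kb, and of 7 or more in 17.4% of 25700 tiles of 100 kb. The tiles include gene deserts. Among tiles with an ING1 myoblast peak, as many lists were found in 15.9% for Myc, 43.8% for Cdkn1a, 84.2% for Ccnd1 and 80.7% for E2f3, so the number of lists at Ccnd1 and E2f3 was usual for such tiles. In the plot of peaks along the windows, 8 lists share a base at Myc, 7 at Cdkn1a and 5 at each of Ccnd1 and E2f3. With replicate lists joined in place of the pooled ones, the numbers were 8, 7, 4 and 4 in that order. How often so many lists share a base elsewhere in the genome was not computed.

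**Figure D1:**
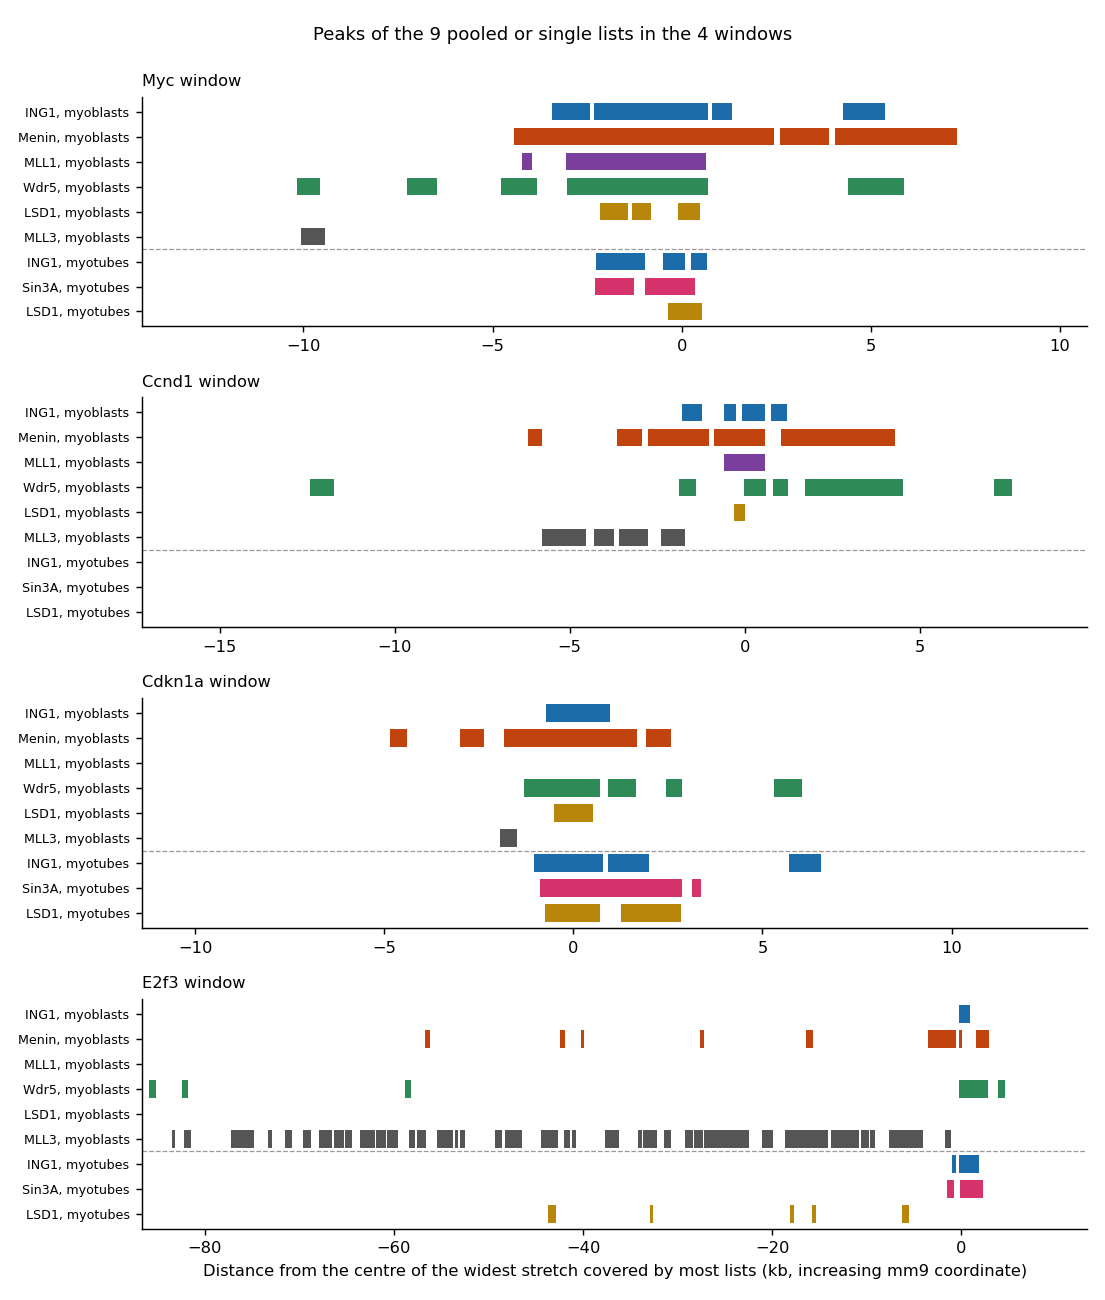
Peaks of the 9 pooled or single lists in the windows of Myc, Ccnd1, Cdkn1a and E2f3, drawn to scale along the x axis (kb from the centre of the widest stretch covered by most lists); bars are peaks and the dashed line separates myoblast from myotube lists. Myc, Cdkn1a and E2f3 have ING1 and Sin3A peaks in myotubes, the 3 myotube lists are empty at Ccnd1, and MLL3 fills 46.6% of the E2f3 window.

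At Myc the writer MLL1 with Menin and Wdr5, the reader ING1 and the eraser LSD1 lay on top of one another in myoblasts. One Menin peak of 6884 bp (61814828 to 61821711) spanned an MLL1 peak of 3719 bp (61816203 to 61819921), a Wdr5 peak of 3736 bp (61816228 to 61819963) and an ING1 peak of 2992 bp (61816962 to 61819953). Each was among the widest of its list: 0.296% of Menin peaks, 0.484% of MLL1 peaks, 0.196% of Wdr5 peaks and 0.220% of ING1 peaks were at least as wide. All 3982 bases covered by MLL1 in the window were also covered by Menin, 99.4% of them by Wdr5 and 90.4% by ING1. Genome-wide shares for MLL1 peaks were not computed. Over all ING1 myoblast peaks, 87.8% overlapped Menin, 83.9% Wdr5 and 37.9% MLL1, so overlap with Menin or Wdr5 was usual for ING1. The 3 LSD1 peaks of myoblasts, 734, 511 and 582 bp wide, lay wholly inside the MLL1 peak. MLL3 lay apart, with 1 peak of 628 bp (61809209 to 61809836) that met a Wdr5 peak of 599 bp but ended 5210 bp below the nearest MLL1 peak and 5998 bp below the nearest ING1 peak.

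Coverage of the Myc window was high for its width. ING1 peaks of myoblasts covered 5.64 kb, which 0.00875% of 25-kb tiles reached, Wdr5 7.58 kb (0.0632% of tiles), MLL1 3.98 kb (0.102%) and Menin 11.4 kb (0.571%). LSD1 of myoblasts covered 1.83 kb (0.0194%). Among tiles with a peak of the same list, as much was reached in 0.135% for ING1, 0.170% for Wdr5, 1.48% for MLL1, 2.26% for Menin and 0.536% for LSD1. MLL3 covered 0.628 kb, a value that 52.5% of tiles reached, so MLL3 did not share the high coverage of the other 5 myoblast lists here.

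Every one of the 9 myoblast replicate lists had a peak in the Myc window, which 24 of 102833 tiles of 25 kb matched (0.0233%). Short lists cap this count, as MLL1 replicate 2 had a peak in only 355 tiles and ING1 replicate 1 in 418. ING1 peaks covered 641 and 3413 bp in replicates 1 and 2, Menin 8653 and 7036 bp, and MLL1 3215 and 1615 bp. Wdr5 covered 3592, 607 and 590 bp in its 3 replicates, of which replicate 3 lay at the lower end of the site and replicate 2 at the upper end. All of these lists had a peak within the span of the pooled Menin peak. In myotubes only 2 of 5 replicate lists had a peak, ING1 replicate 1 (358 bp) and Sin3A replicate 1 (2159 bp).

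In myotubes the Myc site was still listed but narrower. Pooled ING1 peaks numbered 4 in myoblasts and 3 in myotubes and covered 5640 and 2302 bases, the latter all inside bases covered in myoblasts, so 40.8% of the myoblast bases were kept and no base was new. Sin3A covered 2338 bp, wholly inside the MLL1, Menin, Wdr5 and ING1 peaks of myoblasts. LSD1 went from 3 peaks and 1827 bp to 1 peak of 897 bp (61818914 to 61819810), which sat on the upper of the 3 former LSD1 peaks. The 8 lists other than MLL3 coincided on 2 stretches of 197 bp (61819169 to 61819365) and 118 bp (61819505 to 61819622). The 197-bp stretch met 1 of 2 ING1 replicate lists of myoblasts and 1 of 3 of myotubes. It met 1 of 2 lists for Sin3A, 2 of 3 for Wdr5 and 2 of 2 for each of MLL1 and Menin. The 118-bp stretch rested on an ING1 myotube peak (61819505 to 61819929) found in no replicate list, which also gives the myotube ING1 edge named next. The upper edges of the MLL1, Wdr5 and both ING1 peaks fell within 42 bp of each other, from 61819921 to 61819963.

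The lower pooled ING1 coverage at Myc was set against the replicate lists. Both myoblast values (641 and 3413 bp) lay above all 3 myotube values (358, 0 and 0 bp). The means were 2027 ± 1960 bp (SD, n = 2) and 119.3 ± 207 bp (SD, n = 3), a myotube minus myoblast difference of −1908 bp (two-sided exact permutation p = 0.20, adjusted p = 0.80 over the 4 genes). With 10 arrangements 0.2 is the smallest p that this design allows, so it could not pass a threshold of 0.05.

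**Figure D2:**
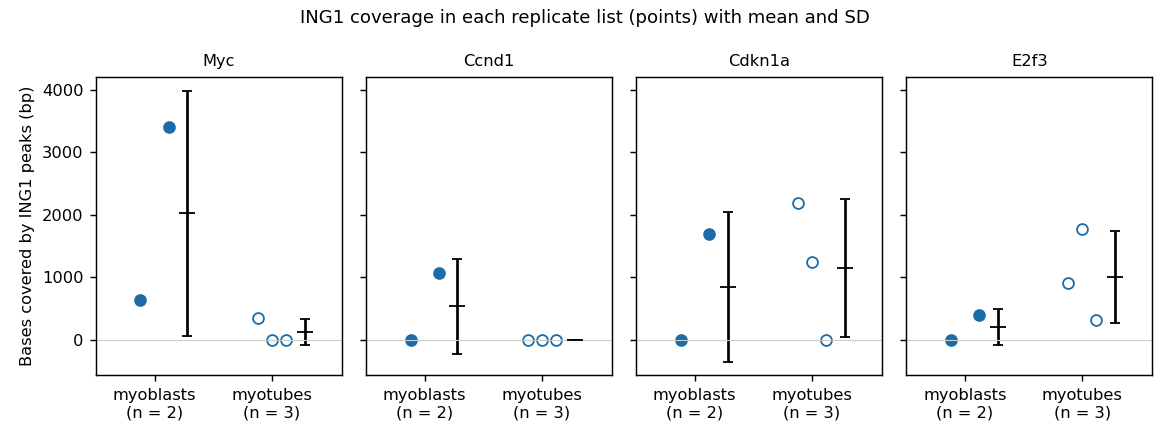
Bases of each window covered by ING1 peaks (y axis, bp) in the 2 myoblast lists (filled) and the 3 myotube lists (open), with mean and SD beside them. At Myc the myoblast lists, 641 and 3413 bp, are above the myotube lists, at E2f3 2 of the 3 myotube lists are above both myoblast lists, and at Cdkn1a the groups overlap.

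Ccnd1, the gene of cyclin D1, had peaks of all 6 myoblast lists and of none of the 3 myotube lists. ING1 had 4 peaks of 358 to 684 bp between 152123418 and 152126421 (2.09 kb in all), Menin 5 peaks (7.63 kb), Wdr5 6 peaks (5.54 kb), MLL1 1 peak of 1161 bp (152124629 to 152125789), LSD1 1 peak of 312 bp and MLL3 4 peaks (3.38 kb). The ING1, Sin3A and LSD1 lists of myotubes had no peak in the 27 kb, nor did any of the 5 myotube replicate lists. Among the 1615 tiles of 27 kb that held peaks of all 6 myoblast lists, 23 (1.42%) were likewise without any myotube peak. Genome-wide 72.0% of ING1 myoblast peaks and 45.1% of LSD1 myoblast peaks overlapped a peak of the same factor in myotubes; at Ccnd1 none of 4 and none of 1 did.

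The empty myotube window did not lie in a wholly empty region. The nearest Sin3A peak (152100887 to 152101569) ended 6.43 kb below the window, while the nearest ING1 and LSD1 peaks of myotubes were 340 and 371 kb away. Of the ING1 replicate lists of myoblasts, replicate 2 covered 1078 bp and replicate 1, with its 428 peaks, covered 0. The means were 539.0 ± 762 bp in myoblasts (SD, n = 2) and 0 in each of the 3 myotube lists (difference −539.0 bp, two-sided exact permutation p = 0.80, adjusted p = 1.0). Without ING1 replicate 2 of myoblasts both states stood at 0, so the ING1 difference at Ccnd1 rested on that list and the pooled one.

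The factors at Ccnd1 were spread over 3 adjoining zones, apart from outlying Wdr5 peaks at 152112805 to 152113488 and 152132332 to 152132834. These outlying peaks met no replicate list. MLL3 lay from 152119412 to 152123517, shared 41.6% of its bases with Menin and 2.96% with ING1, and ended 1111 bp below the MLL1 peak. In the MLL1 zone, MLL1 was covered by Menin over its whole length, by ING1 over 87.3% and by Wdr5 over 50.5%. Only 16 bp (152125204 to 152125219) were covered by ING1, Menin, MLL1, Wdr5 and LSD1 together, although the upper edges of the first 4 lay within 19 bp, from 152125789 to 152125808. Above it, a Wdr5 peak of 2805 bp (152126929 to 152129733) ran along a Menin peak of 3274 bp (152126235 to 152129508) with no MLL1, and 0.915% of Wdr5 peaks were at least as wide.

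Among the factors at Ccnd1, Menin alone had peaks in each of its replicate lists, which covered 3369 and 3764 bp. MLL1 had 1161 bp in replicate 1 and none in replicate 2, and Wdr5 had 785, 393 and 0 bp. The Wdr5 replicate peaks lay in the wide upper zone and not at the MLL1 zone, where Wdr5 was listed in the pooled peaks alone.

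**Figure D3:**
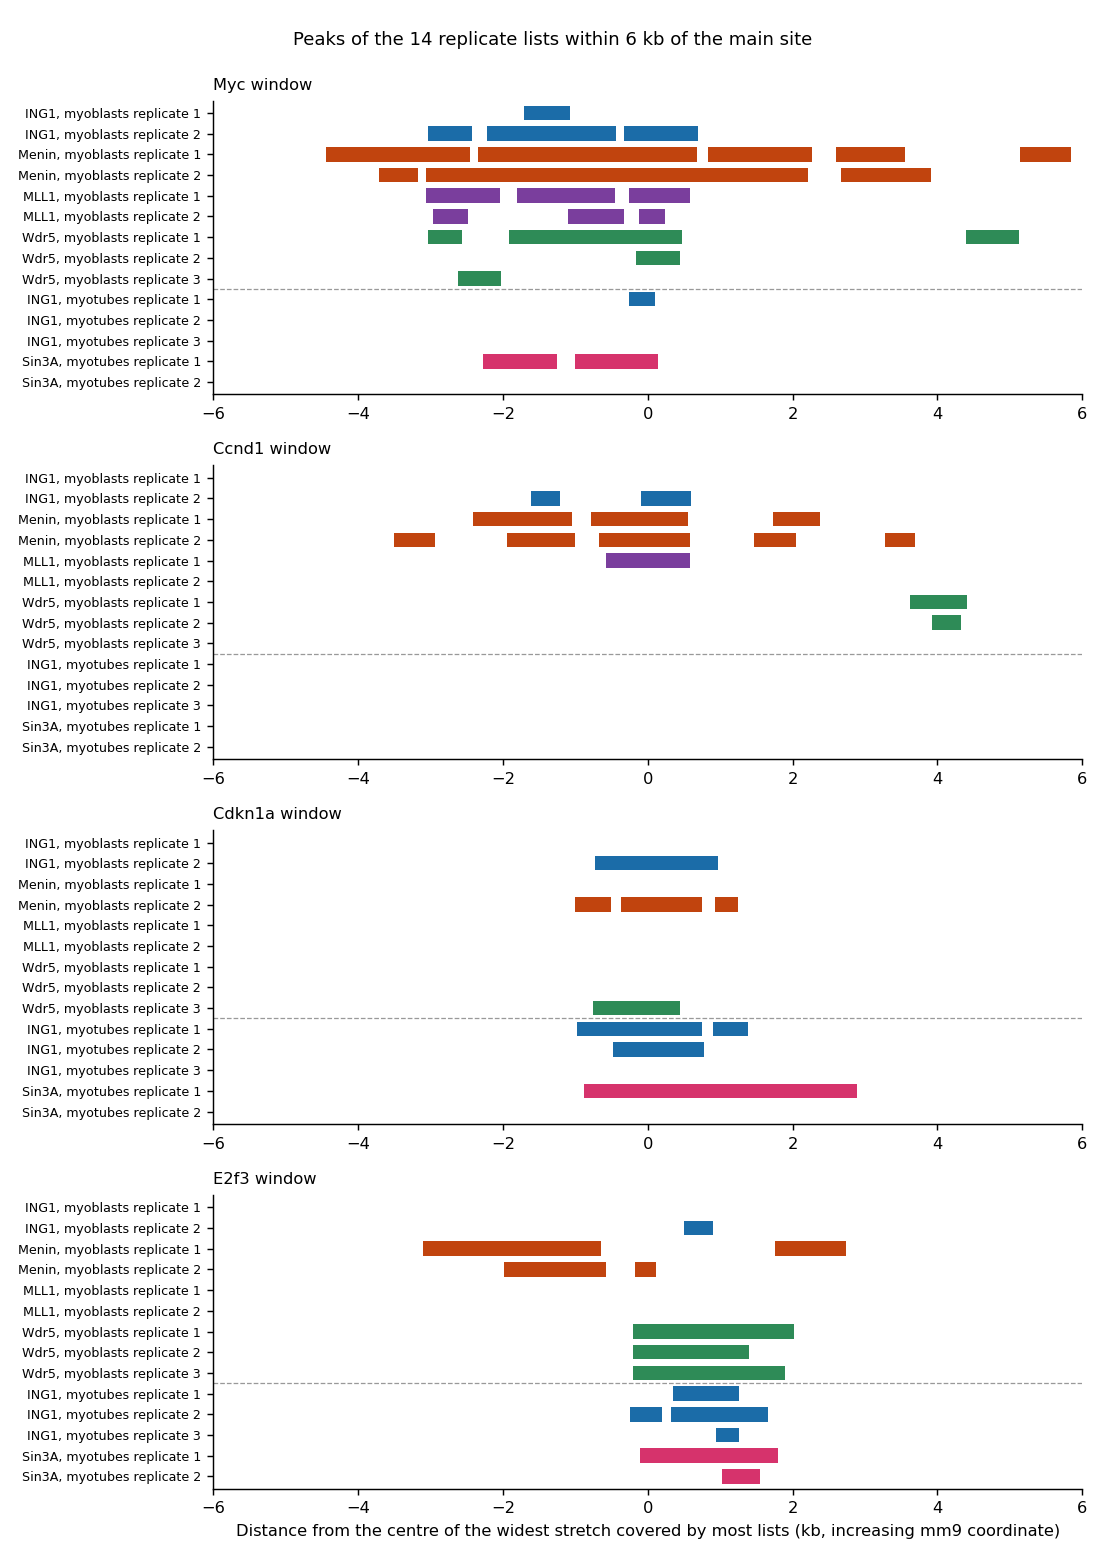
Peaks of the 14 replicate lists within 6 kb of the main site of each gene (x axis, kb; 1 row per list, dashed line between myoblast and myotube lists). All 9 myoblast lists have a peak at Myc and all 5 myotube lists one at E2f3, while the 5 myotube rows at Ccnd1 and both MLL1 rows at Cdkn1a and E2f3 are empty.

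Cdkn1a, the gene of the inhibitor p21, had ING1 peaks in both states and no MLL1 peak in myoblasts, the one state in which MLL1 was mapped. In myoblasts 1 ING1 peak of 1699 bp (29230676 to 29232374) lay within a Menin peak of 3523 bp (29229567 to 29233089). A Wdr5 peak of 2013 bp overlapped the ING1 peak, and an LSD1 peak of 1036 bp (29230888 to 29231923) lay wholly inside the ING1 peak. That LSD1 peak ranked 76 of 4442 by width. The 7 lists other than MLL1 and MLL3 coincided on exactly its 1036 bp. The nearest MLL1 peak ended 3.46 kb below the window, and MLL3 had 1 peak of 436 bp at 29229466 to 29229901, 774 bp below the ING1 peak. Of the 25-kb tiles with an ING1 myoblast peak, 49.9% also held MLL1, and 37.9% of all ING1 myoblast peaks overlapped an MLL1 peak, so an ING1 site without MLL1 was the more frequent kind.

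In myotubes the same site was listed more broadly. Pooled ING1 peaks numbered 1 in myoblasts and 3 in myotubes and covered 1699 and 3750 bases, with 92.3% of the myoblast bases kept and 2181 bp new. LSD1 had 1 and 2 peaks that covered 1036 and 3055 bp, with all myoblast bases kept and 2019 bp new. A Sin3A peak of 3761 bp (29230529 to 29234289), rank 11 of 14088 by width, contained both LSD1 peaks. The coverage in myotubes stood high among 25-kb tiles: 0.0535% of tiles reached the 3.75 kb of ING1, 0.0807% the 4.01 kb of Sin3A and 0.976% the 3.06 kb of LSD1. Among tiles with a peak of the same list, the shares were 0.728% for ING1, 0.747% for Sin3A and 12.7% for LSD1, so LSD1 coverage stood out less than that of the other two. The second ING1 peak and the second LSD1 peak of myotubes covered the stretch from 29232309 to 29234259, nearly all of it above the ING1 peak of myoblasts, where Wdr5 and Menin of myoblasts were also listed.

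Replicate lists did not separate the states at Cdkn1a. ING1 covered 0 and 1699 bp in the myoblast lists and 2198, 1252 and 0 bp in the myotube lists, and the groups overlapped. The means were 849.5 ± 1201 bp (SD, n = 2) and 1150 ± 1103 bp (SD, n = 3), a difference of 300.5 bp (two-sided exact permutation p = 1.0, adjusted p = 1.0). The direction turned without ING1 replicate 1 of myoblasts (−549.0 bp) or without ING1 replicate 1 of myotubes (−223.5 bp). Sin3A covered 3761 bp in replicate 1 and 0 in replicate 2, Menin 0 and 1925 bp, and Wdr5 0, 0 and 1198 bp. No pooled peak of Cdkn1a was found in every replicate list of its factor.

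At E2f3, ING1 and Sin3A lay at the upper end of the window and MLL3 mostly below them. At that end, between 30073104 and 30079588, lay all ING1 and Sin3A peaks and the widest Wdr5 and Menin peaks. MLL3 had 36 peaks from 29993121 to 30075518 that covered 46.6 kb, and 0.366% of 100-kb tiles, or 0.410% of those with an MLL3 peak, had as much. MLL3 covered 16.3% to 79.0% of each of the 9 lower 10-kb steps of the window and none of the uppermost one. Its last peak ended 916 bp below the ING1 peak of myoblasts and 102 bp below the first ING1 peak of myotubes. No ING1 peak of either state overlapped MLL3 in this window, while a Sin3A peak of 733 bp overlapped the last MLL3 peak. Genome-wide 18.7% of ING1 myoblast peaks overlapped MLL3, so a lack of overlap was the usual case for them. Menin and Wdr5 were listed in both places: 5 of 8 Menin peaks (30019939 to 30060997) and 2 of 5 Wdr5 peaks (29994212 to 30018437) lay in the MLL3 stretch. These Menin and Wdr5 peaks were in pooled lists alone and met no peak of a replicate list. The last MLL3 peak lay inside the widest Menin peak, which was found in both Menin replicate lists.

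The upper site of E2f3 was the best replicated of the myotube sites. In myotubes a Sin3A peak of 2414 bp (30076524 to 30078937) overlapped an ING1 peak of 2172 bp (30076396 to 30078567), and both were present in every replicate list of their factor. ING1 covered 913, 1782 and 314 bp in its 3 myotube lists, and Sin3A 1914 and 518 bp in its 2. A peak in all 5 myotube replicate lists was found in 42 of 25700 tiles of 100 kb (0.163%). Short lists cap this count, as ING1 replicate 3 had a peak in only 125 of these tiles. The very short ING1 replicate 3, with 126 peaks in the whole genome, had 1 of them here (30077582 to 30077895). Wdr5 of myoblasts marked the same place in all 3 replicates (2234, 1607 and 2090 bp), while Menin (3435 and 1693 bp) lay mostly on its flanks.

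ING1 at E2f3 covered more bases in myotubes than in myoblasts, with overlap between the lists. The pooled list went from 1 peak of 1105 bp (30076435 to 30077539) to 2 peaks and 2621 bp, with all myoblast bases kept. The myoblast lists covered 0 and 404 bp, and 2 of the 3 myotube lists lay above both. The means were 202.0 ± 286 bp (SD, n = 2) and 1003 ± 738 bp (SD, n = 3), a difference of 801.0 bp (two-sided exact permutation p = 0.40, adjusted p = 0.80). In the pooled lists the lower edges of an ING1 peak of each state, the Wdr5 peak and a Menin peak fell within 39 bp, from 30076396 to 30076435. The ING1 peak of myoblast replicate 2 began higher, at 30077134. How often edges lie this close elsewhere in the genome was not computed, for this site or for Myc and Ccnd1.

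LSD1 was listed at E2f3 in myotubes alone and away from the ING1 site. Its 5 peaks, 374 to 810 bp wide, lay between 30032946 and 30071082 and covered 2747 bp. Each lay wholly inside an MLL3 peak of myoblasts, whereas 25.5% of LSD1 myotube peaks overlapped MLL3 genome-wide; MLL3 filled much of this window, and the 2 lists come from different states. None of the 5 LSD1 peaks overlapped ING1 or Sin3A. The share of all LSD1 myotube peaks that overlap ING1 or Sin3A was not computed, so this count has no genome-wide value beside it. In the reverse direction, 37.5% of ING1 myotube peaks overlapped an LSD1 myotube peak genome-wide. In myoblasts the nearest LSD1 peak was 547 kb away from the window and the nearest MLL1 peak 4.87 kb. Of the 100-kb tiles with an ING1 myoblast peak, 53.2% also held LSD1 of myoblasts and 64.9% MLL1. Over all 100-kb tiles these shares were 12.0% and 21.6%. With the LSD1 myotube list shortened to the 4442 widest peaks, the length of the myoblast list, no LSD1 peak remained at E2f3. With the wider 50% of that list, the peaks of 810 and 658 bp remained.

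**Figure D4:**
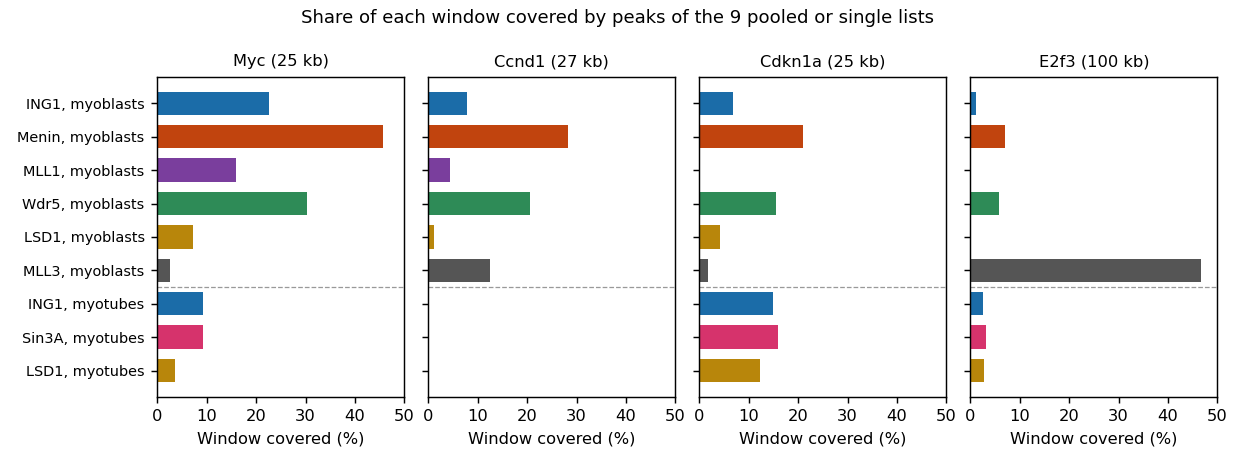
Share of each window covered by peaks (x axis, percent) for the 9 pooled or single lists, with the dashed line between myoblast and myotube lists. Menin leads at Myc (45.7%), Ccnd1 (28.3%) and Cdkn1a (21.0%), and MLL3 leads at E2f3 (46.6%) while it covers 2.51% at Myc and 1.74% at Cdkn1a.

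The 4 genes were then read side by side as shares of their windows. Menin covered 45.7% at Myc, 28.3% at Ccnd1, 21.0% at Cdkn1a and 7.12% at E2f3, and Wdr5 followed the same order with 30.3%, 20.5%, 15.6% and 5.71%. MLL3 ran differently, with 46.6% at E2f3, 12.5% at Ccnd1, 2.51% at Myc and 1.74% at Cdkn1a. Of the 10 ING1 myoblast peaks in the windows, 10 overlapped Menin, 8 Wdr5, 4 MLL1 and 1 MLL3. Over all ING1 myoblast peaks these shares were 87.8%, 83.9%, 37.9% and 18.7%, so the counts in the windows lay near those of the whole list. The 5 LSD1 peaks of myoblasts all overlapped ING1, as did 71.7% of LSD1 myoblast peaks genome-wide. The E2f3 window is wider than the others, and a share of it is lowered by its length.

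Between the states the 4 genes split by direction in the pooled ING1 and single LSD1 lists. Both factors covered fewer bases in myotubes at Myc and Ccnd1, and more at Cdkn1a and E2f3. For LSD1 the differences, myotubes minus myoblasts, were −930 bp at Myc, −312 bp at Ccnd1, 2019 bp at Cdkn1a and 2747 bp at E2f3. With 1 list per state there is no replicate check. The LSD1 list of myotubes was also far longer, with 16504 peaks over 13.1 Mb against 4442 peaks over 1.95 Mb in myoblasts. With the myotube list cut to its 4442 widest peaks, the differences were −930, −312, 2019 and 0 bp in that order. Whether list length underlies the LSD1 gains was not tested. Of the 10 ING1 peaks of myoblasts 3 were kept (72.0% over the whole list), and 6 of the 8 of myotubes were shared (62.1% over the whole list). For LSD1, 2 of the 5 myoblast peaks were kept (45.1% genome-wide), and 2 of the 8 myotube peaks were shared (11.5% genome-wide). In myotubes 7 of the 8 ING1 peaks overlapped Sin3A, against 79.7% of all. The single one without Sin3A lay at Cdkn1a, from 29237112 to 29237944, and was found in no replicate list.

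**Figure D5:**
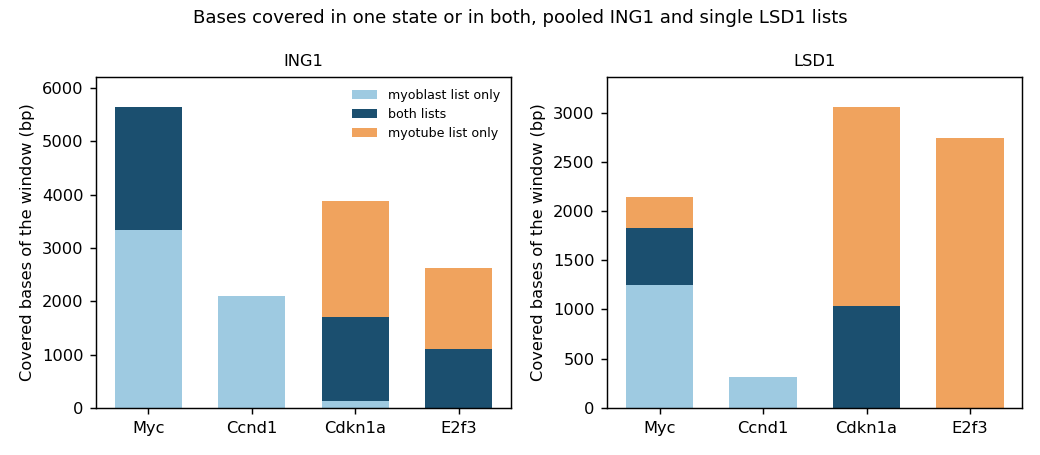
Bases of each window covered (y axis, bp) by pooled ING1 peaks (left) and LSD1 peaks (right) in the myoblast list alone, in both lists or in the myotube list alone. For ING1, 3338 of the 5640 bases at Myc and all 2093 at Ccnd1 are in the myoblast list alone, and 2181 bases at Cdkn1a and 1516 at E2f3 are in the myotube list alone.

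How well replicates bear out the pooled peaks differed by factor. Of the pooled peaks in the 4 windows, 6 of 10 for ING1 in myoblasts, 11 of 20 for Menin, 2 of 3 for MLL1, 5 of 20 for Wdr5, 4 of 8 for ING1 in myotubes and 4 of 6 for Sin3A met a peak of at least 1 replicate list. Over the whole lists these shares were 58.4%, 28.9%, 40.5%, 16.8%, 32.7% and 63.4%. At Myc the widest ING1 peak of myoblasts and the widest MLL1 and Wdr5 peaks were in every replicate list of their factor, as were 2 Menin peaks. The widest ING1 peak of myotubes there was in no replicate list. At Ccnd1 only 3 Menin peaks were in every replicate list of their factor, and at E2f3 the main ING1 peak of myotubes, the main Sin3A and Wdr5 peaks and 1 Menin peak were.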

How the data were processed

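The analysis used peak lists of C2C12 myoblasts and myotubes; 10 input samples and 6 RNA-seq samples in the labels were not analysed here. The deposited files give peak boundaries in base pairs, per the file headers, with no height, count or p-value. Per the submitters' processing notes, the builds were mm9 and NCBIM37 and the tools included bedtools 2.17.0, SAMtools 0.1.19 and Bowtie 0.12.9. What each tool did, which program called the peaks at which threshold, and how replicate data became 1 pooled list were not given in the sources used here.

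Groups came from the sample titles. Peaks on chromosomes 1 to 19 and X were kept, starts are printed counted from 1, and a peak belonged to a window or overlapped another peak from 1 bp on. Covered bases were clipped to the window. Tiles ran from the first to the last peak of each chromosome. ING1 coverage was compared between states by a two-sided exact permutation test over replicate lists, with Benjamini-Hochberg adjustment over 4 genes. Interval functions were tested on simulated data (Python 3.11.15, NumPy 2.4.6). Genes and lists were chosen with earlier results of these data known. All 4 genes are named, and each peak of a pooled or single list was considered; sites covered by most lists were called main sites. With no mm9 annotation, other cell-cycle genes and genes of like pattern, which had been planned, could not be placed. Promoter sequences are RefSeq GRCm38.p6 and matched 2 of 4 symbols. Alternatives were wider peaks, equal list lengths, unions of replicate lists, widened windows, extended peaks, left-out replicates and a replicate block.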

Additional observations from a re-analysis of the deposited data

How the results depend on the processing

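The ING1 difference kept its direction under 40 of 44 alternatives. At Cdkn1a it turned to −549.0 bp without ING1 myoblast replicate 1 and −223.5 bp without ING1 myotube replicate 1. At Ccnd1 it went to 0 without ING1 myoblast replicate 2, and also to 0 with lists cut to the 126 peaks of the shortest ING1 list, which leaves few peaks. Over left-out replicates it ran from −3294 to −521.7 bp at Myc, −1078 to 0 at Ccnd1, −549.0 to 1150 at Cdkn1a and 411.5 to 1146 at E2f3. Without the shortest list of each state, a setting chosen after seeing the data, it was −3234, −1078, 26.00 and 943.5 bp in that order. No label says that equal replicate numbers mark a shared culture; with a replicate block over numbers 1 and 2 the values were −1848, −539.0, 875.5 and 1146 bp, and none changed direction.

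The number of lists with a peak stayed within 1.5 times in 78 of 80 alternatives. With pooled peaks found in every replicate list it was 3 at Ccnd1, where Menin, LSD1 and MLL3 were left. It was also 3 at Cdkn1a, where both LSD1 lists and MLL3 were left. The LSD1 and MLL3 lists have no replicates, so this setting could not remove them. Of the lists with replicates, Menin alone was left at Ccnd1 and none at Cdkn1a. The number of lists on 1 base went from 5 to 2 at Ccnd1 with the wider 50% of each list. With all replicate lists joined in place of the pooled ones, this number was 4 at Ccnd1 and 4 at E2f3. Replicates were left out from these joined lists. The number then ran from 3 to 4 at Ccnd1 (3 without ING1 myoblast replicate 2 and without MLL1 replicate 1). At E2f3 it also ran from 3 to 4 (3 without Sin3A replicate 1). The LSD1 difference at Ccnd1 was 0 with the wider 50% of each list and −749 bp with the window widened by 10 kb. At E2f3 it was 1468 bp with the wider 50% of each list and 0 with the myotube list cut to the myoblast length. Causes were not tested. Without read counts, a missing peak in a short list cannot be told apart from absent binding.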
